A study of Homo sapiens with 12 samples.

Results

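The interleukin-1 family genes followed here were 10 genes, chosen by name for their place in the pathway, with earlier results of these data known. They were the agonist ligands IL1A, IL1B, IL36G, IL18 and IL33, the receptor antagonist IL1RN, the receptors IL1R1, IL1R2 and IL1RL1, and the shared co-receptor IL1RAP. All 10 had a row among the 23459 genes of the count table, and 8 of them had enough reads to be tested. IL36G and IL33 did not.

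The cells were MCF10A, an immortal but non-tumorigenic line of human breast epithelium, in which doxycycline (Dox) switches on YAP5SA. YAP5SA is a mutant of the Hippo pathway effector YAP that escapes inhibition by the Hippo kinases. The line was infected with an expression vector for JUN, a subunit of the AP-1 transcription factor, or with the empty vector, and received Dox at 100 ng/ml or its solvent ethanol (EtOH), for 16 h by the study's methods. The groups are called vector EtOH and vector Dox, or JUN EtOH and JUN Dox, after the vector and the agent given. They held 3 RNA sequencing libraries each, and all of them carried the inducible YAP5SA allele. Differences between Dox and EtOH are worded below as those on YAP5SA. No group received Dox without that allele, so an effect of Dox itself cannot be told apart from that of YAP5SA. The design asks what YAP5SA does with and without added JUN, and what JUN does with and without induced YAP5SA. RNA alone was measured, so no value here speaks of secreted or processed protein.

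Interleukin-1 alpha and beta both signal through the receptor encoded by IL1R1, which recruits the co-receptor IL1RAP and, inside the cell, MYD88 and the IRAK kinases, leading to NF-kB and AP-1 activity. The pathway is braked at its entrance by the antagonist encoded by IL1RN, which occupies IL1R1 without signalling, and by IL1R2, a decoy receptor that binds interleukin-1 but has no signalling domain. Epithelial cells are known to keep interleukin-1 alpha, interleukin-18 and interleukin-33 as stores that are released on damage, whereas interleukin-1 beta is made on demand and is cut to its active form by caspase-1.

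Total counts per library ranged from 18594867 to 28993487. Levels are CPM, counts scaled to the size of the library, and the limit that a count of 0 allows, 3 counts, was 0.107 to 0.15 CPM in a single library. JUN, the gene on the vector, had 55.0, 35.5 and 52.2 CPM in the vector EtOH libraries and 188, 186 and 194 CPM in vector Dox. It had between 1064 and 1399 CPM in the 6 libraries with the JUN vector, above every library without it. YAP1 had 171 to 191 CPM in vector EtOH and 216 to 273 CPM in vector Dox, beside 211 to 249 CPM in JUN EtOH and 208 to 365 CPM in JUN Dox, and its difference on Dox was not called in vector cells (edgeR adjusted p 0.0819) or in JUN cells (edgeR adjusted p 0.308). The labels of induction are therefore not checked by YAP1 reads. All 8 epithelial markers were detected. Their summed level was 7579 to 8009 CPM in vector EtOH against 4004 to 5048 CPM in vector Dox, and 5870 to 7463 CPM in JUN EtOH against 3560 to 5600 CPM in JUN Dox, with no overlap on YAP5SA in either pair. Of these 8, 5 fell and 0 rose on YAP5SA in vector cells, and again in JUN cells. Of all genes tested, 14.4% and 10.3% fell there, and 15.6% and 11.2% rose. On the JUN vector 3 of the 8 rose and 2 fell without induction, and 4 rose and 2 fell with it. There 20.1% and 18.4% of all genes rose, and 18.9% and 17.2% fell. The part of these markers in the members' differences was not tested. Of 11 markers of leukocytes and mast cells, LYZ, CD3E and TPSAB1 had no count in any library and PTPRC and SPI1 never exceeded 3 counts. The summed level of that list was 443 to 532 CPM in vector EtOH, 396 to 567 CPM in vector Dox, 340 to 379 CPM in JUN EtOH and 318 to 385 CPM in JUN Dox, most of it from CSF1R, whose span holds the pseudogene RPL7P1. Of 7 markers of endothelium and fibroblasts, CDH5 and COL3A1 never exceeded 3 counts, and the summed level was 9.78 to 13.8 CPM in vector EtOH, 4.55 to 5.28 CPM in vector Dox, 15.3 to 27.0 CPM in JUN EtOH and 9.95 to 20.4 CPM in JUN Dox. Of the 4 tested, 4 fell and 0 rose on YAP5SA in vector cells, and 3 fell and 0 rose in JUN cells. On the JUN vector 1 rose and 1 fell without induction, and 1 rose and 0 fell with it. The shares of all genes are those given for the epithelial markers.

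Set per length of exon, the order of the family's levels differed between cells with and without the JUN vector. These levels take the counts to be exon reads, although the counted feature is not given in the sources used here. In vector EtOH the highest level was that of IL18, at 49.6 ± 5.70 CPM per kb of exon (SD, n = 3), ahead of IL1A at 14.6 ± 1.67 and IL1B at 9.86 ± 1.31. The receptor levels were lower, with IL1R1 at 2.10 ± 0.256 and IL1RAP at 2.09 ± 0.172 CPM per kb, which overlapped, and IL1R2 at 1.16 ± 0.141. IL1RN at 0.190 ± 0.0329 and IL1RL1 at 0.106 ± 0.0631 CPM per kb came last among the tested members and overlapped each other. Vector Dox kept the ligands in that order, with IL18 at 83.6 ± 15.2, IL1A at 41.2 ± 2.03 and IL1B at 16.4 ± 1.11 CPM per kb. In JUN EtOH the order of the ligands was turned round, with IL1B at 299.5 ± 46.0, IL1A at 138 ± 38.5 and IL18 at 29.7 ± 3.11 CPM per kb. JUN Dox had the same order, with IL1B at 346.8 ± 9.13, IL1A at 225 ± 44.0 and IL18 at 39.0 ± 3.93. In each of the 4 groups, these 3 ligand levels did not overlap. Per kb of the whole gene span, IL1B was ahead of IL1A in vector EtOH (4.20 against 2.78 CPM per kb of span), the pair overlapped in vector Dox, and the order of the 3 ligands in the JUN groups was as given.

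The family is also a set of neighbours in the genome. Of the 10 genes, 7 lie on the long arm of chromosome 2, in a ligand cluster and a receptor cluster (positions are GRCh37, GENCODE v44lift37). The ligand cluster spans 360.1 kb with 9 genes. IL1A (chr2:113531502-113542070, minus strand) and IL1B (chr2:113587328-113594393, minus strand) open it, 45.3 kb apart, and IL1RN (chr2:113856892-113891593, plus strand) closes it. Between IL1B and IL1RN lie IL37, IL36G (chr2:113730780-113743235, plus strand), IL36A, IL36B, IL36RN and IL1F10, and no group mean of these 6 genes exceeded 0.0766 CPM. IL1B in the same cluster reached a group mean of 1044 CPM. The receptor cluster holds IL1R2 (chr2:102608422-102645006, plus strand), IL1R1 (chr2:102681004-102796334, plus strand) and IL1RL1 (chr2:102927962-102968497, plus strand). IL1R2 and IL1R1 are 36.0 kb apart. IL18 (chr11:112013976-112034819, minus strand), IL33 (chr9:6215786-6257983, plus strand) and IL1RAP (chr3:190231840-190377539, plus strand) lie elsewhere. The IL18 span lies inside a longer gene model on the other strand (ENSG00000255292), and IL1R1 overlaps the antisense gene IL1R1-AS1 over 7254 bp. The use of strand is not given in the sources used here, so reads of such pairs cannot be told apart.

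Since the design adds an AP-1 subunit, 3 promoters of the ligand cluster are shown for their AP-1 letters. Each is the stretch of 250 bases before a RefSeq transcript start (GRCh38.p14), 5′ to 3′ on the strand of the gene. Capitals mark a match to TGANTCA, with any base at N, a loose form of the letters that AP-1 is known to bind. IL1A is from chr2:112784494-112784743 (minus strand), IL1B from chr2:112836780-112837029 (minus strand) and IL1RN from chr2:113117721-113117970 (plus strand).
IL1A: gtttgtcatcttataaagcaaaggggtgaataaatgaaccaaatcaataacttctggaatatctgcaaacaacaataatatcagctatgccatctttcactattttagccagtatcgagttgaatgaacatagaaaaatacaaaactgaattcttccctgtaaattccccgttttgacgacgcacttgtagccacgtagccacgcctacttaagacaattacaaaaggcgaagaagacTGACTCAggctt
IL1B: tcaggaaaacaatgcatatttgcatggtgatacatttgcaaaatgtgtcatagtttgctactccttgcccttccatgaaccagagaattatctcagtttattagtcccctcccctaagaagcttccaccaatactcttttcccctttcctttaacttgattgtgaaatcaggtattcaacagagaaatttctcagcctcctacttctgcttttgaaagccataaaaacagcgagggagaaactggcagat
IL1RN: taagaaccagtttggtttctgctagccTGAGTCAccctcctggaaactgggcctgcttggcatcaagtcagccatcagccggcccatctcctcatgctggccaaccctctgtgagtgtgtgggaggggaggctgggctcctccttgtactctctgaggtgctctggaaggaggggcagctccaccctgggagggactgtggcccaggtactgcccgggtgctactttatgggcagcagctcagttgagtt
The IL1A match begins at position -12, with the start site as 0, and a further match, TGAGTCA, begins at position 38, beyond the stretch shown. The IL1RN match begins at position -223, in 1 of its 3 promoter windows. The IL1B window held none. The RefSeq table gave 18 windows of 300 bases (250 before and 50 after a start) for 9 members, and none for IL18. TGANTCA, which reads the same on both strands, also occurred in 1 window of IL1RL1, there as TGATTCA, and in a second, overlapping IL1A window. It occurred in 7.71% of all 35116 windows. TGACGTCA, another sequence bound by JUN dimers, occurred in no window of a member and in 1.85% of all windows. GGAATG or its reverse CATTCC, the letters bound by TEAD factors, occurred in 1 of the 4 IL1R1 windows and in 14% of all windows. A match of letters in this window is a description and no evidence of binding.

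IL1A, which encodes interleukin-1 alpha, was higher with induced YAP5SA and with the JUN vector alike. Its levels were 33.2, 28.1 and 26.8 CPM in vector EtOH and 84.9, 85.9 and 78.4 CPM in vector Dox. JUN EtOH had 368, 247 and 223 CPM, and JUN Dox had 553, 427 and 382 CPM. The groups formed 4 steps with no overlap. YAP5SA raised IL1A by 1.50 on the log2 scale in vector cells (SE 0.18, edgeR adjusted p 1.93e-05), a 2.82-fold difference, and by 0.70 in JUN cells (SE 0.17, edgeR adjusted p 0.00907), which is 1.63-fold. The latter call was lost without JUN EtOH replicate 2, where the log2 difference was 0.62 with an edgeR adjusted p of 0.0518. The JUN vector raised IL1A 9.49-fold without induction (log2 3.25, SE 0.19, edgeR adjusted p 1.61e-08) and 5.47-fold with it (log2 2.45, SE 0.18, edgeR adjusted p 1.46e-07).

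IL1B, which encodes interleukin-1 beta, had 34.0, 26.2 and 28.8 CPM in vector EtOH and 52.5, 49.8 and 45.8 CPM in vector Dox. JUN EtOH held 1060.1, 807 and 837 CPM, and JUN Dox held 1075, 1032 and 1023 CPM. All 6 libraries with the JUN vector lay far above the 6 without, while the JUN groups overlapped each other. On the JUN vector IL1B was 30.4-fold higher without induction (edgeR adjusted p 4.54e-11) and 21.2-fold higher with it (edgeR adjusted p 7.7e-11). YAP5SA raised it 1.66-fold in vector cells (edgeR adjusted p 0.00064). In JUN cells its log2 difference was 0.21, with a 95% interval of -0.06 to 0.48 (edgeR adjusted p 0.266).

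IL18 encodes interleukin-18, a ligand of a separate receptor that is stored as an inactive precursor. It ran against IL1A and IL1B on the JUN vector. Its levels were 116, 145 and 126 CPM in vector EtOH against 262.5, 187 and 204 CPM in vector Dox. JUN EtOH had 69.1, 85.3 and 77.4 CPM and JUN Dox had 91.5, 112 and 101 CPM. Every JUN EtOH library lay below every vector EtOH library, and every JUN Dox library below every vector Dox library. The JUN vector lowered IL18 1.67-fold without induction (log2 -0.74, SE 0.14, edgeR adjusted p 0.000712) and 2.15-fold with it (log2 -1.10, SE 0.14, edgeR adjusted p 2.26e-05). YAP5SA raised it 1.69-fold in vector cells (log2 0.75, SE 0.13, edgeR adjusted p 0.000657). In JUN cells the groups did not overlap and the log2 difference was 0.39 (SE 0.14), with an edgeR adjusted p of 0.051, which missed the threshold.

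IL36G and IL33, the other agonists, were near the detection limit in all 12 libraries. IL36G, an interleukin-36 ligand of skin and other epithelia, had 9 counts in all, 4 of them in JUN EtOH replicate 3. IL33, the ligand of the receptor encoded by IL1RL1, had 14 counts in all, 5 of them in vector EtOH replicate 3. Their highest levels in a library were 0.188 and 0.224 CPM, and any difference between groups was not detectable at this depth.

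IL1RN, the antagonist, was a rare transcript. Its levels were 0.570, 0.798 and 0.763 CPM in vector EtOH (15, 16 and 17 counts) against 0, 0.451 and 0.330 CPM in vector Dox (0, 10 and 8 counts). JUN EtOH had 2.42, 3.75 and 3.52 CPM (55, 89 and 75 counts) and JUN Dox had 0.752, 0.648 and 0.569 CPM (15, 15 and 16 counts). JUN EtOH stood above the other groups, and JUN Dox overlapped vector EtOH. The JUN vector raised IL1RN 4.56-fold without induction (log2 2.19, SE 0.41, edgeR adjusted p 0.000793). YAP5SA lowered it 4.94-fold in JUN cells (log2 -2.30, SE 0.41, edgeR adjusted p 0.001). In vector cells the log2 difference on YAP5SA was -1.42 (SE 0.55), not called at an edgeR adjusted p of 0.066, and under induction that on the JUN vector was 1.31 (SE 0.56), not called at 0.08. DESeq2 called both, with adjusted p 0.0208 and 0.0331. The vector Dox libraries decided these last values. Without replicate 1, the library with no count, they were -0.86 (edgeR adjusted p 0.124) and 0.74 (edgeR adjusted p 0.186), and without replicate 2 they were -2.03 (edgeR adjusted p 0.0307) and 1.92 (edgeR adjusted p 0.0333).

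IL1R1, the signalling receptor, moved in opposite directions on the manipulations. It had 15.7, 16.4 and 12.9 CPM in vector EtOH against 6.93, 7.84 and 6.11 CPM in vector Dox. JUN EtOH had 73.1, 54.7 and 53.4 CPM and JUN Dox had 52.6, 39.7 and 41.3 CPM. The groups did not overlap, although the lowest JUN EtOH and the highest JUN Dox library lay close together. The JUN vector raised IL1R1 4.03-fold without induction (log2 2.01, SE 0.15, edgeR adjusted p 2.15e-07) and 6.39-fold with it (log2 2.68, SE 0.16, edgeR adjusted p 2.07e-08). YAP5SA lowered it 2.15-fold in vector cells (log2 -1.11, SE 0.16, edgeR adjusted p 0.000132) and 1.36-fold in JUN cells (log2 -0.44, SE 0.15, edgeR adjusted p 0.0433). The last call was lost when any of 6 libraries was left out. The log2 difference was -0.28 (edgeR adjusted p 0.238) without JUN EtOH replicate 1, -0.51 (0.056) without JUN EtOH replicate 2, -0.36 (0.17) without JUN Dox replicate 2, -0.39 (0.126) without JUN Dox replicate 3, -0.44 (0.0502) without vector Dox replicate 3 and -0.44 (0.0574) without vector EtOH replicate 1.

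IL1R2, the decoy receptor, went the same way as IL1R1 in every comparison. Its levels were 3.88, 3.04 and 3.41 CPM in vector EtOH against 2.22, 2.16 and 1.94 CPM in vector Dox. JUN EtOH had 28.4, 32.6 and 23.4 CPM and JUN Dox had 12.7, 21.7 and 17.7 CPM, with no overlap between groups. The JUN vector raised it 8.12-fold without induction (log2 3.02, SE 0.19, edgeR adjusted p 3.96e-08) and 8.24-fold with it (log2 3.04, SE 0.21, edgeR adjusted p 5.31e-08). YAP5SA lowered it 1.64-fold in vector cells (log2 -0.71, SE 0.23, edgeR adjusted p 0.0265) and 1.62-fold in JUN cells (log2 -0.69, SE 0.17, edgeR adjusted p 0.00866). The call in vector cells was lost without vector EtOH replicate 1 (log2 -0.62, edgeR adjusted p 0.101), vector EtOH replicate 3 (-0.73, 0.0572), vector Dox replicate 2 (-0.74, 0.0502) or vector Dox replicate 3 (-0.66, 0.0858), and that in JUN cells without JUN EtOH replicate 2 (-0.57, 0.0557).

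IL1RAP, the co-receptor that interleukin-1, interleukin-33 and interleukin-36 receptors share, gave no call in any comparison. It had 23.8, 21.4 and 25.2 CPM in vector EtOH against 23.0, 25.3 and 22.3 CPM in vector Dox. JUN EtOH had 30.1, 26.2 and 21.4 CPM and JUN Dox had 30.4, 24.1 and 20.9 CPM, and all groups overlapped. The 95% interval of its log2 difference ran from -0.31 to 0.32 on YAP5SA in vector cells, from -0.36 to 0.26 on YAP5SA in JUN cells, from -0.17 to 0.45 on the JUN vector without induction and from -0.22 to 0.40 with it.

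IL1RL1, the receptor for interleukin-33, was as rare as IL1RN. It had 1.03, 0.449 and 0.359 CPM in vector EtOH (27, 9 and 8 counts) against 0, 0.676 and 0.330 CPM in vector Dox (0, 15 and 8 counts). JUN EtOH had 3.83, 4.76 and 2.21 CPM (87, 113 and 47 counts) and JUN Dox had 0.451, 0.951 and 0.888 CPM (9, 22 and 25 counts). JUN EtOH stood above the other groups, which overlapped each other. It rose 5.69-fold on the JUN vector without induction (log2 2.51, SE 0.53, edgeR adjusted p 0.00193) and fell 4.62-fold on YAP5SA in JUN cells (log2 -2.21, SE 0.51, edgeR adjusted p 0.00625). The other log2 differences were -0.91 (SE 0.69, edgeR adjusted p 0.356) on YAP5SA in vector cells and 1.21 (SE 0.67, edgeR adjusted p 0.171) on the JUN vector under induction. Without vector Dox replicate 1, which had no count, they were -0.34 (edgeR adjusted p 0.694) and 0.64 (edgeR adjusted p 0.408), and the latter was called without vector Dox replicate 2 (2.17, edgeR adjusted p 0.0448). Its annotated span overlaps that of IL18R1 on the same strand over 40509 bp, so its reads are uncertain. IL18R1, a subunit of the interleukin-18 receptor, had 2.44 to 4.03 CPM in vector EtOH and 10.4 to 12.7 CPM in JUN EtOH.

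**Figure D1:**
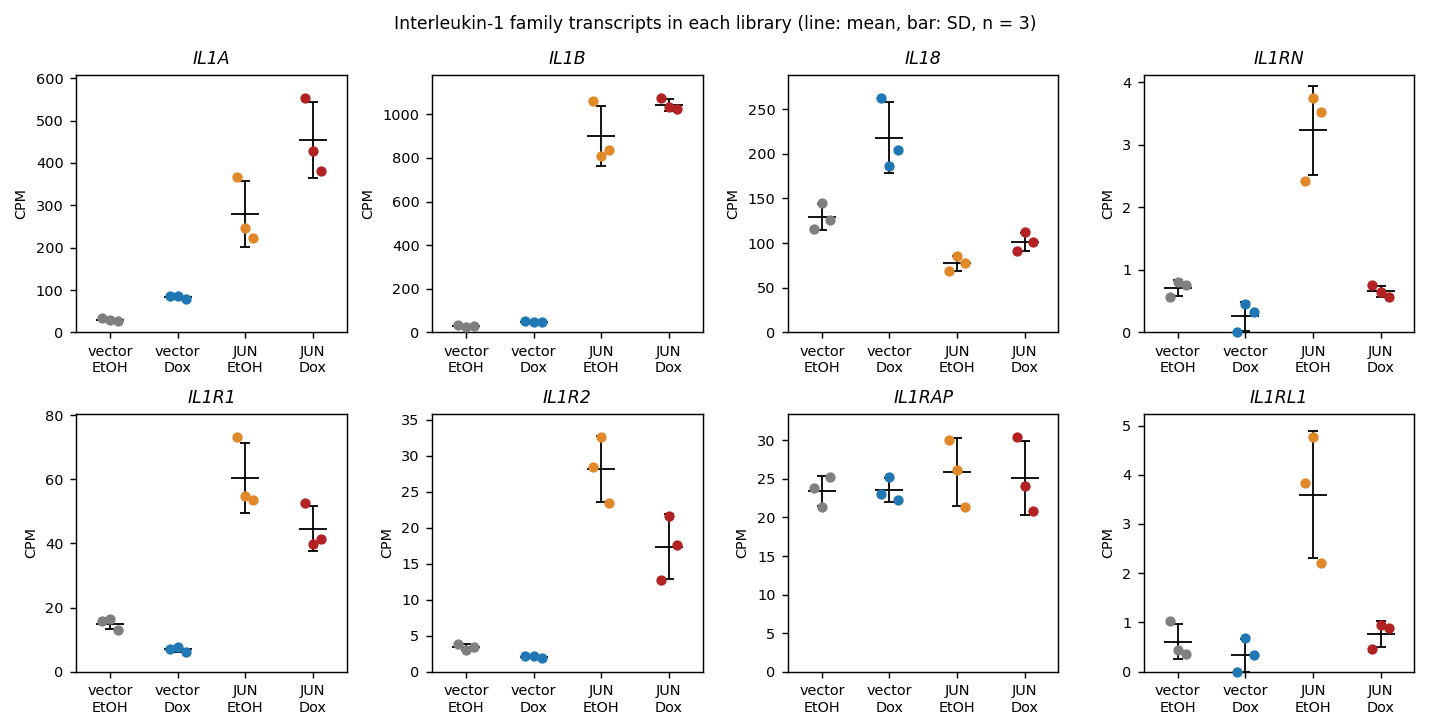
Level of each of the 8 tested members in CPM on a linear axis from 0, with 1 point per library, the group mean as a line and the SD as a bar (n = 3). IL1A and IL1B are highest in the JUN groups, IL18 is lowest there, IL1RN and IL1RL1 stand out in JUN EtOH, and IL1RAP overlaps across groups.

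Counted over the members, YAP5SA in vector cells called 5 of the 8 tested (IL1A, IL1B and IL18 higher, IL1R1 and IL1R2 lower), where 30.1% of the 14775 genes tested were called, 15.6% higher and 14.4% lower. The JUN vector without induction called 7 (IL18 lower, the others higher), against 39% of all genes, 20.1% higher and 18.9% lower. YAP5SA in JUN cells called 5 (IL1A higher, IL1RN, IL1R1, IL1R2 and IL1RL1 lower), against 21.4%, 11.2% higher and 10.3% lower. The JUN vector under induction called 5 (IL1A, IL1B, IL1R1 and IL1R2 higher, IL18 lower), against 35.6%, 18.4% higher and 17.2% lower. IL1RL1 reached the level of the filter on low counts in all libraries of the JUN groups and in 3 of the 6 without the JUN vector. The counts describe the 8 genes that passed and not the family of 10. The median log2 difference of the 8 was -0.36, 2.35, -0.24 and 1.88 in the order of these comparisons, beside medians of 0.0072, 0.00056, 0.0032 and 0.0030 for all genes tested. The groups did not overlap for 6, 7, 6 and 6 of the members, against 43.9%, 57.8%, 39.3% and 43.4% of all genes. The comparisons share groups, so they are not independent of each other.

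**Figure D2:**
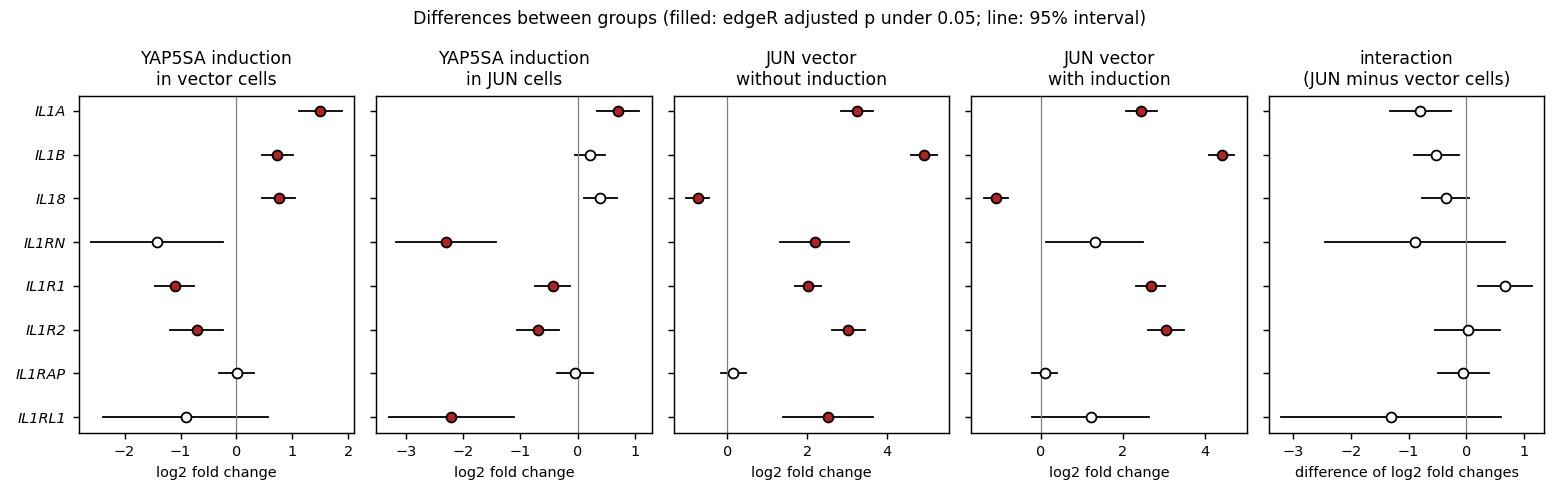
Log2 difference of each of the 8 tested members in the 4 comparisons, and the difference between the responses to YAP5SA in JUN and vector cells (interaction), with 95% intervals. Filled points have an edgeR adjusted p under 0.05. The 2 JUN panels hold positive values except for IL18, and no point of the interaction panel is filled.

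Whether the response to YAP5SA differed between JUN and vector cells was tested for each member, and 0 of 8 differences were called by edgeR or by DESeq2, where edgeR called 1.12% of all genes, 0.291% higher and 0.826% lower. At an unadjusted edgeR p under 0.05 there were 3, beside 1330 of the 14775 genes tested. For IL1A the log2 response was smaller in JUN cells by 0.80, with a difference of -0.80 (SE 0.25, edgeR adjusted p 0.19). For IL1B the difference was -0.52 (SE 0.18, edgeR adjusted p 0.273) and for IL1R1 it was 0.67 (SE 0.22, edgeR adjusted p 0.228). The intervals for the others were wide for the rare transcripts, from -2.44 to 0.67 for IL1RN and from -3.20 to 0.60 for IL1RL1, and narrower for IL18 (-0.77 to 0.05), IL1R2 (-0.55 to 0.59) and IL1RAP (-0.49 to 0.39).

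Within a library, the balance of the family can be read as ratios of counts per kb of exon, which do not depend on library size. The antagonist IL1RN amounted to 5.51, 9.43 and 8.94 per 1000 of IL1A and IL1B together in vector EtOH. It amounted to 0, 2.04 and 1.64 in vector Dox. The ratio was 1.21, 2.57 and 2.43 in JUN EtOH against 0.319, 0.313 and 0.288 in JUN Dox. The vector EtOH libraries lay above all others, and those of JUN Dox lay below those of JUN EtOH. In JUN EtOH this ratio was below vector EtOH although IL1RN itself was higher there, since the agonists rose by more.

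The ratio of IL1B to IL1A was 0.677 ± 0.0479 in vector EtOH and 0.398 ± 0.0142 in vector Dox (SD, n = 3). It was 2.21 ± 0.295 in JUN EtOH and 1.57 ± 0.250 in JUN Dox. Per kb of exon, IL1A was thus ahead in all 6 libraries without the JUN vector, and IL1B in all 6 with it. Per kb of gene span the ratio was 1.51 ± 0.107 in vector EtOH and 0.888 ± 0.0316 in vector Dox, so which of the pair led in vector EtOH depends on the length used, while the comparison of groups does not. The ratio was 4.94 ± 0.659 in JUN EtOH and 3.51 ± 0.559 in JUN Dox on that scale. The ratio of the decoy IL1R2 to IL1R1 was 0.560 ± 0.0990 in vector EtOH against 0.734 ± 0.0603 in vector Dox, and JUN EtOH had 1.14 ± 0.261 against 0.977 ± 0.370 in JUN Dox. The JUN Dox libraries overlapped all other groups. With the gene span as length, the mean of this receptor ratio in JUN Dox was 1.28. Whether that mean lies below or above 1 therefore depends on the length used. With 3 libraries against 3, a two-sided exact permutation test cannot give a p below 0.1. That value was reached in 9 of the 12 comparisons of these ratios (0.133 after adjustment over the 12), and the others were the IL1RN ratio on the JUN vector under induction (exact permutation p 0.4) and the IL1R2 ratio on YAP5SA in JUN cells (0.5) and on the JUN vector under induction (0.4).

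**Figure D3:**
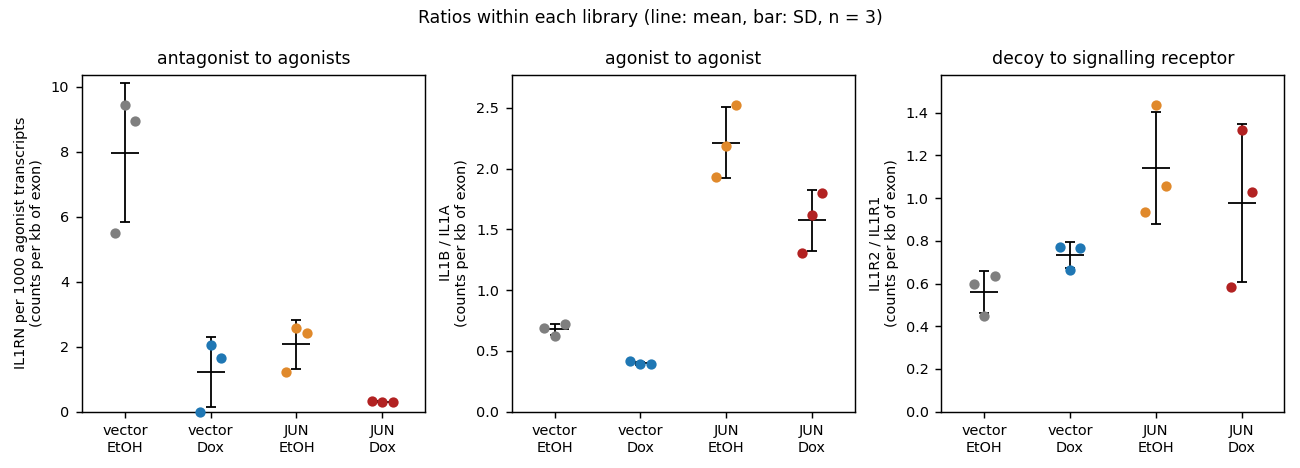
Ratios within each library of counts per kb of exon, with 1 point per library, the group mean as a line and the SD as a bar (n = 3). IL1RN per 1000 agonist transcripts is highest in vector EtOH, at 5.51 to 9.43, and lowest in JUN Dox apart from the vector Dox library at 0, and the ratio of IL1B to IL1A is below 1 in vector and above 1 in JUN libraries on this scale. Per kb of gene span its mean in vector EtOH is 1.51.

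The genes most like each member over the 12 libraries were sought by Pearson's r of log2 CPM among the 11404 tested genes of at least 5 CPM. The libraries fall into 4 groups, so such an r mostly describes the likeness of 4 group means. IL1B was most like CXCL8 (r 0.997), a neutrophil chemokine, followed by SIRPA (0.992) and RBPMS (0.990). IL1A was most like TNFAIP3 (0.995), which encodes the NF-kB inhibitor A20, then MREG (0.994) and PLD5 (0.993). IL1RN was nearest to TRERF1 (0.975), IGSF9B (0.964) and NFIA (0.963), and IL1RL1 to SPRED2 (0.972), FOXO3B (0.962), which is a near copy of FOXO3 and uncertain, and RREB1 (0.961). IL1R1 was nearest to DNER (0.989), LTBP1 (0.987) and RNF24 (0.986). IL1R2 was nearest to LAMB3 (0.991), a chain of the basement membrane protein laminin-332, CTSB (0.989) and NRBP2 (0.987). IL18 was nearest to TOMM22 (0.988), a subunit of the mitochondrial import pore, DBNDD2 (0.985) and the mitochondrial ribosomal gene MRPS26 (0.980). IL1RAP, which varied least, had the weakest likeness, with FMR1 at 0.918, CA13 at 0.907 and DCUN1D1 at 0.888. Among the members themselves, the closest pairs were IL1R1 with IL1R2 (0.963), IL1A with IL1B (0.957) and IL1RN with IL1RL1 (0.921), and IL18 ran opposite to IL1R1 (-0.943).

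The rest of the pathway was read from 4 lists written by role. The other ligands, receptors and binding proteins of the family had 5 of 12 genes tested. The shares called on YAP5SA were 20% in vector and 20% in JUN cells, beside 30.1% and 21.4% of all genes. On the JUN vector they were 40% without induction and 20% with it, beside 39% and 35.6%. None of these shares was above that of all genes by more than the 40% beside 39%. On the JUN vector without induction 1 rose, IL18R1 (log2 1.89, edgeR adjusted p 5.83e-06), and 1 fell, SIGIRR (-0.64, edgeR adjusted p 0.00411), an inhibitory receptor. IL18R1 also rose on the JUN vector under induction (1.29, edgeR adjusted p 0.000278), and it fell on YAP5SA in JUN cells (-0.92, edgeR adjusted p 0.00298). IL18BP, the binding protein that neutralises interleukin-18, was called in none of the 4 comparisons, with 0.959 to 2.09 CPM.

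Of 23 genes for maturation and release of the ligands, 16 were tested. On YAP5SA in vector cells 2 rose and 4 fell, on the JUN vector without induction 7 rose and 1 fell, on YAP5SA in JUN cells 3 rose and 3 fell, and on the JUN vector under induction 9 rose and 1 fell. These are 37.5%, 50%, 37.5% and 62.5% of the genes tested, beside 30.1%, 39%, 21.4% and 35.6% of all genes. NLRP3, the sensor of an inflammasome, had 1, 2 and 2 counts in vector EtOH against 44, 60 and 40 counts in vector Dox, and 82, 56 and 52 counts in JUN EtOH against 134, 183 and 228 counts in JUN Dox. From the summed counts it was 28.5-fold higher in vector Dox than in vector EtOH (95% exact interval 11.9 to 89.1, counting error only) and 38.5-fold higher in JUN EtOH (16.2 to 119.9). It was 2.36 to 3.61 CPM in JUN EtOH and 6.72 to 8.10 in JUN Dox (log2 1.44, edgeR adjusted p 0.000256). PYCARD, the adaptor that links such sensors to caspase-1, never exceeded 2 counts. CASP1, which encodes caspase-1, fell on YAP5SA in vector cells (log2 -0.54, edgeR adjusted p 0.00125). It rose on the JUN vector under induction (log2 0.38, edgeR adjusted p 0.012). Its mean was 24.9 CPM in vector EtOH and 17.1 CPM in vector Dox, and that of JUN EtOH was 25.4 CPM against 22.2 CPM in JUN Dox. Among the other genes called, the JUN vector without induction raised CTSS, a cysteine protease of lysosomes (2.04, edgeR adjusted p 1.06e-05), and GSDME, a pore-forming gasdermin (1.71, edgeR adjusted p 5.83e-08). Under induction it raised CTSS by 2.26 (edgeR adjusted p 6.1e-06) and GSDME by 1.29 (edgeR adjusted p 8.24e-07). NINJ1, which ruptures the membrane of dying cells, fell in all 4 comparisons, by 0.89 and 1.08 on YAP5SA and by 0.79 and 0.97 on the JUN vector on the log2 scale.

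Of 18 genes that carry the signal from the receptor, 17 were tested. The counts of genes that rose and fell were 4 and 2 on YAP5SA in vector cells, 9 and 0 on the JUN vector without induction, 2 and 1 on YAP5SA in JUN cells and 10 and 1 on the JUN vector under induction. The shares called, 35.3% and 17.6% on YAP5SA in vector and JUN cells, were near those of all genes (30.1% and 21.4%), and those on the JUN vector were 52.9% and 64.7% beside 39% and 35.6%. IRAK2, a kinase-like partner of the receptor complex, behaved like IL1R1. It had 3.84 to 5.02 CPM in vector EtOH against 1.00 to 1.16 CPM in vector Dox, and 30.9 to 37.8 CPM in JUN EtOH against 8.60 to 10.7 CPM in JUN Dox, with no overlap between groups. It fell on YAP5SA by 1.98 in vector cells (edgeR adjusted p 1.21e-06) and by 1.88 in JUN cells (edgeR adjusted p 2.33e-07), and rose on the JUN vector by 2.99 (edgeR adjusted p 1.89e-09) and 3.09 (edgeR adjusted p 7.96e-09), all on the log2 scale. IRAK3, which restrains this complex, rose in all 4 comparisons, by 0.46 to 0.68. MYD88, the adaptor, rose on the JUN vector by 0.63 without induction (edgeR adjusted p 0.000377) and by 0.79 with it (edgeR adjusted p 5.34e-05).

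Genes known to respond to interleukin-1 moved mostly upward on the JUN vector. Of 32 listed, 29 were tested. On the JUN vector 25 rose and 3 fell without induction, and 23 rose and 3 fell with it. On YAP5SA 10 rose and 8 fell in vector cells, and 6 rose and 10 fell in JUN cells. The shares called were 96.6% and 89.7% on the JUN vector, beside 39% and 35.6% of all genes, and 62.1% and 55.2% on YAP5SA, beside 30.1% and 21.4%. The median log2 difference of the 29 was 1.81 and 1.64 on the JUN vector, and 0.21 and -0.29 on YAP5SA in vector and JUN cells. With CXCL5 and CSF2, which are rare in vector cells, set to their limits, these medians were 1.81, 1.64, 0.16 and -0.29.

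CXCL5 and CSF2 had no count in vector EtOH and were at least 25.1-fold and 7.38-fold higher in JUN EtOH, against a floor of 3 counts per library. CXCL3, another neutrophil chemokine, had 2.24 to 4.41 CPM in vector EtOH and 109 to 210 in JUN EtOH (log2 5.61, edgeR adjusted p 4.89e-08). TNFAIP2 fell in all 4 comparisons, by 1.83 and 1.85 on YAP5SA and by 0.63 and 0.64 on the JUN vector. SOD2, the mitochondrial superoxide dismutase, fell on YAP5SA by 1.39 in vector cells (edgeR adjusted p 0.000188) and by 1.77 in JUN cells (edgeR adjusted p 4.22e-05), while IL1A and the chemokine CXCL3 (1.31 and 1.04) rose there. The CXCL3 calls (edgeR adjusted p 0.014 in vector and 0.0167 in JUN cells) were lost in 4 and 5 of 19 alternatives. On YAP5SA in vector cells, the highest values were those of LIF (2.27), CXCL1 (1.84) and CCL20 (1.78). SAA1 and SAA2, acute-phase proteins, fell on the JUN vector under induction by 1.88 and 1.49, and as near-identical genes their counts are uncertain. IL6 had 1.08 to 2.70 CPM in vector EtOH against 1.69 to 3.05 CPM in vector Dox, and 0.379 to 0.563 CPM in JUN EtOH against 3.27 to 5.12 CPM in JUN Dox. It fell on the JUN vector without induction by 1.91 (edgeR adjusted p 0.00166) and rose 7.99-fold on YAP5SA in JUN cells (edgeR adjusted p 4.55e-05).

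**Figure D4:**
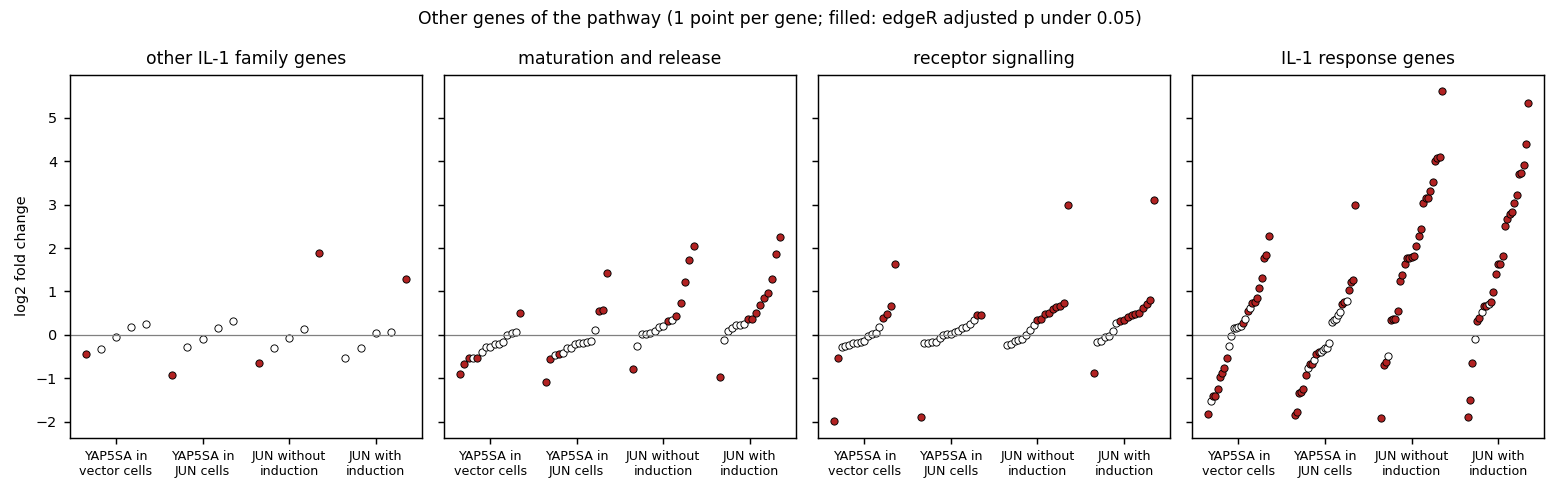
Log2 difference of each tested gene of 4 lists in the 4 comparisons, in rising order within a comparison, with 1 point per gene. Filled points have an edgeR adjusted p under 0.05. NLRP3, CXCL5 and CSF2 are left out where a group had 3 counts or fewer in each library. Among the response genes, 25 rose on the JUN vector without induction and 10 on YAP5SA in vector cells.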

How the data were processed

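Poly(A) RNA of 12 cultures, 3 per group, was sequenced with single-end reads. The deposited values are raw counts of the authors, 1 per Entrez gene and library, with no normalization. They trimmed the reads (cutadapt 4.2), aligned them to hg19 (Bowtie2 2.3.5.1, per the submitters' processing notes) and counted with countOverlaps. Bowtie2 does not split reads over introns, so junction reads are largely lost. The annotation, the counted feature and the use of strand are not given in the sources used here.

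CPM used TMM-scaled library sizes. Differences were tested with edgeR 4.0.16 (R 4.3.3), a quasi-likelihood fit to all 12 libraries after filterByExpr (minimum count 10, minimum total 15), with p-values adjusted by the Benjamini-Hochberg method over 14775 genes and called under 0.05. The code was tested on simulated data. DESeq2 1.42.0 and other settings were alternatives. The edgeR p-values rest on the spread between libraries within groups, estimated together over all 12 libraries and not from the compared groups alone. The study calls the 3 libraries of a group biological replicates. Differences between replicates exceeded counting noise (chi-square per degree of freedom 7.89 to 60.1). Exact intervals and floors cover counting error only, and the other 95% intervals come from the edgeR fit and include the spread between libraries.

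Members and lists were chosen with earlier results of these data known. Named genes were the 10 members, JUN and YAP1, at most the 3 highest and 3 lowest called genes of each list and comparison, and the 3 genes most like each member. PYCARD, IL18BP and the values given for genes outside that rule were chosen after their values were seen.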

Additional observations from a re-analysis of the deposited data

Results flagged for a closer look

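The response to YAP5SA differed between JUN and vector cells for 6 genes of the manipulated and pathway lists and for 1 epithelial marker. None of the 8 tested members was called, although IL1A was with the replicate number as a block (edgeR adjusted p 0.035). Each difference is the log2 response of the JUN cells less the one of the vector cells, tested as the interaction of the edgeR fit. It was -2.03 for JUN itself (edgeR adjusted p 0.000133), the gene on the vector. The mean of JUN was 1279 CPM in JUN EtOH and 1248 CPM in JUN Dox. Reads from the vector are part of these counts, so the value does not show how the cells' own JUN gene responded. NLRP3 had -3.30 (edgeR adjusted p 0.00399), a fitted value that rests on 5 counts in vector EtOH. PELI1, a ubiquitin ligase of the receptor complex, had -1.47 (edgeR adjusted p 0.000366), with 9.56 to 11.7 CPM in vector EtOH against 33.4 to 34.3 CPM in vector Dox, and 14.7 to 18.6 CPM in JUN EtOH against 16.2 to 20.6 CPM in JUN Dox. IL6 had 2.63 (edgeR adjusted p 0.0151), and 2.47 without JUN EtOH replicate 2 (edgeR adjusted p 0.0628). ICAM1, an adhesion molecule, had -0.99 (edgeR adjusted p 0.0125), and -0.95 without vector EtOH replicate 3 (edgeR adjusted p 0.054). LIF had -1.51 (edgeR adjusted p 0.0463), a call that was lost in 12 of 18 alternatives. CDH1, which encodes the epithelial adhesion molecule E-cadherin, had -1.03 (edgeR adjusted p 0.00541), with 112 to 143 CPM in vector Dox and 50.8 to 69.2 CPM in JUN Dox.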

How the results depend on the processing

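The members' calls on YAP5SA in JUN cells were the least stable. Their number, 5, was 3 when a mean of at least 5 CPM was required, which removes IL1RN and IL1RL1, and ranged from 2 to 6 with 1 library left out. It was 2 without JUN EtOH replicate 2. The other pairwise counts stayed within 4 to 7. IL18 on YAP5SA in JUN cells was called by DESeq2 (adjusted p 0.039), without the filter on low counts (edgeR adjusted p 0.0491) and with only the libraries of the comparison (edgeR adjusted p 0.0317), and IL1R1 lost its call in the last setting (edgeR adjusted p 0.0611). Of the 8 members' log2 differences on the JUN vector, without induction and with it, that of IL1RAP alone changed sign, and no call was lost apart from those of IL1RN and IL1RL1, not tested at 5 CPM.

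The sign of the smallest differences depended on the setting. For IL1RAP on YAP5SA in vector cells, where the value was 0.0036, it was -0.0039 with DESeq2, -0.0049 with RLE size factors, -0.044 with upper-quartile factors, -0.010 with no filter, -0.024 at 5 CPM, -0.019 with only the libraries compared and -0.068 to 0.052 with 1 library left out. With 1 library left out, IL1RAP ranged from -0.21 to 0.075 on YAP5SA in JUN cells and from -0.063 to 0.21 on the JUN vector under induction. In the interaction, such ranges were -0.19 to 0.071 for IL1RAP and -0.17 to 0.21 for IL1R2.

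The replicate number was also fitted as a block. The deviations of same-numbered libraries from their group means had r of -0.258 to 0.466 over 18 pairs. Those of differently numbered libraries had r of -0.470 to 0.315 over 36 pairs. Of the 12 libraries, 7 correlated best with their own number, so a pairing by number is neither shown nor excluded. With the replicate block, the count of interaction calls among members rose from 0 to 1, IL1A (-0.80, edgeR adjusted p 0.035).

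The context lists gave, by DESeq2, 10 calls against 6 for maturation and release on YAP5SA in JUN cells. For the interaction, the response genes gave 6 calls by DESeq2, 7 with the replicate block and 1 at 5 CPM, without vector EtOH replicate 3 or without JUN EtOH replicate 2, against 3, and maturation and release gave 2, 1 and 0 against 1. Outside JUN EtOH, IL1RN had 0 to 17 counts and IL1RL1 had 0 to 27 counts in a library, so both are limited by depth. Dividing by the gene span in place of exon length, a setting chosen after seeing the data, turned the IL1B to IL1A ratio in vector EtOH from 0.677 to 1.51.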

Other observations

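IL1RN and IL1RL1 were both at 0 counts in vector Dox replicate 1 and at 8 counts or more in each of the other 11 libraries. They were the 2 genes of the whole table with this pattern in any library. The search was made after the zeros had been seen, and nothing was tested.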
